A study of Rattus norvegicus with 2 samples.

Results

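Cluster 6 held the macrophages among cultured heart cells of newborn rats. It was described here in a library of cells treated with bacterial lipopolysaccharide (LPS) and a library of cells treated with saline. Its cells were taken by the cluster number that the authors gave to each cell, matched by barcode in both libraries. The cluster held 572 of 24210 clustered cells, of which 281 came from the saline library and 291 from the LPS library. The cells came from Sprague-Dawley rats aged 1 to 3 days, with males and females pooled, whose hearts were minced, digested with trypsin and enriched on a Percoll gradient for intrinsic cardiac adrenergic (ICA) cells. By the study's methods the enriched cells were plated and cultured before treatment, and digested with trypsin again after it. Cells of the LPS group received 1 µg/ml LPS for 2 h, which the sample labels name as 055:B strain. Cells of the control group received saline, after which both were sequenced with the 10X Genomics 3′ v2 kit. Both groups thus shared the Percoll enrichment, the culture and the trypsin steps. The labels call all cells ICA cells, although the libraries held many cell types. Pooled rats gave 1 library per condition, so no difference between conditions could be tested, and the handling of a library cannot be told apart from its treatment.

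Macrophages are phagocytes that live in most tissues, the heart included, where they clear dead cells and debris, present antigen and secrete signals. LPS, a component of the outer membrane of Gram-negative bacteria, is bound by CD14 and by the Toll-like receptor TLR4 with its partner MD-2. Through adaptors and IRAK kinases the receptor activates the NF-κB factors, and through a further adaptor it induces type I interferon. Macrophages are among the main sources of the cytokines and chemokines that follow.

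The unit throughout was the unique molecular identifier (UMI), a tag that counts each captured RNA molecule once. A level is the UMIs of a gene summed over the cells of the cluster in a library, per 1000000 UMIs of those cells (CPM). A ratio is the level in the LPS library over that in the saline library, with its exact 95% interval in parentheses. Log2 ratios were taken after adding 0.5 UMI to each sum. Intervals cover counting error only. Cluster 6 made up 2.44% of the clustered saline cells (95% Clopper-Pearson interval 2.16 to 2.74) and 2.29% of the LPS cells (2.04 to 2.57), so its share differed by less than the counting error. The cluster gave 3114592 UMIs in the saline library and 2485786 in the LPS library, and the limit that a count of 0 allows (3 UMIs) was 0.963 and 1.21 CPM. Median UMIs per cell were 8846 and 6900, against 12557 and 9491.5 in all other clustered cells, and the median numbers of genes per cell were 2312 and 1709. Mitochondrial UMIs made up a median of 4.13% and 3.19% of a cell's UMIs. Of the barcodes, 194 occurred in both libraries, among them those of 3 saline and 8 LPS cells of cluster 6, and no barcode was in cluster 6 of both. Without these cells the counts of genes past 2-fold given further on became 284 and 751.

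The label was checked against macrophage markers, as a description only, since the cells had been clustered on these genes. Cd68, a lysosomal glycoprotein of macrophages, stood at 496 CPM in the saline and 531 CPM in the LPS cells of the cluster, against 4.12 and 4.14 CPM in the other cells. Its level was therefore 120 and 128 times that of the other cells. Adgre1, which encodes the F4/80 surface antigen, reached 117 and 176 CPM against 0.957 and 0.903 CPM elsewhere. Msr1, a scavenger receptor for modified lipoproteins, reached 60.04 and 47.9 CPM against 0.789 and 0.536 CPM. Ms4a6a was at 57.2 and 35.8 CPM against 0.207 and 0.112 CPM. The other markers in the list, Il1b and Nlrp3, were also far apart between the libraries, as the values given further on show. In the saline library alone they stood at 179 and 86.4 times the level of the other cells. Nlrp3, the sensor protein of an inflammasome, had 18 UMIs in the saline cluster and 335 in the LPS cluster.

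Of 19 general macrophage genes in the table, 17 passed the minimum that was set for the contrast, namely 50 UMIs summed over the saline and LPS cells and detection in 10% of the cells of either group. Every cell of the cluster held UMIs of at least 2 of these 19 genes. The most abundant was Tyrobp, a signalling adaptor of myeloid receptors, at 3518 and 2103 CPM against 14.7 and 5.46 CPM in other cells. Thinned to 3000 UMIs per cell, 99.3% of saline and 95.2% of LPS cells of the cluster had a Tyrobp UMI (100% and 99.0% without thinning), against 3.88% and 1.51% of the fibroblasts of cluster 0, a class that should lack it. Other leading genes against the rest were LOC100910669, AABR07035722.1, LOC681325, LOC498276, LOC681341, Havcr2, which encodes the receptor TIM-3, and Ccl3. Pf4, a chemokine listed with resident macrophage genes, was at 2999 and 3601 CPM, and 6 of the 12 measured resident genes passed the minimum while Vsig4 was at 0 in both libraries. The plot of marker levels shows the separation from other cells on a log axis.

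**Figure D1:**
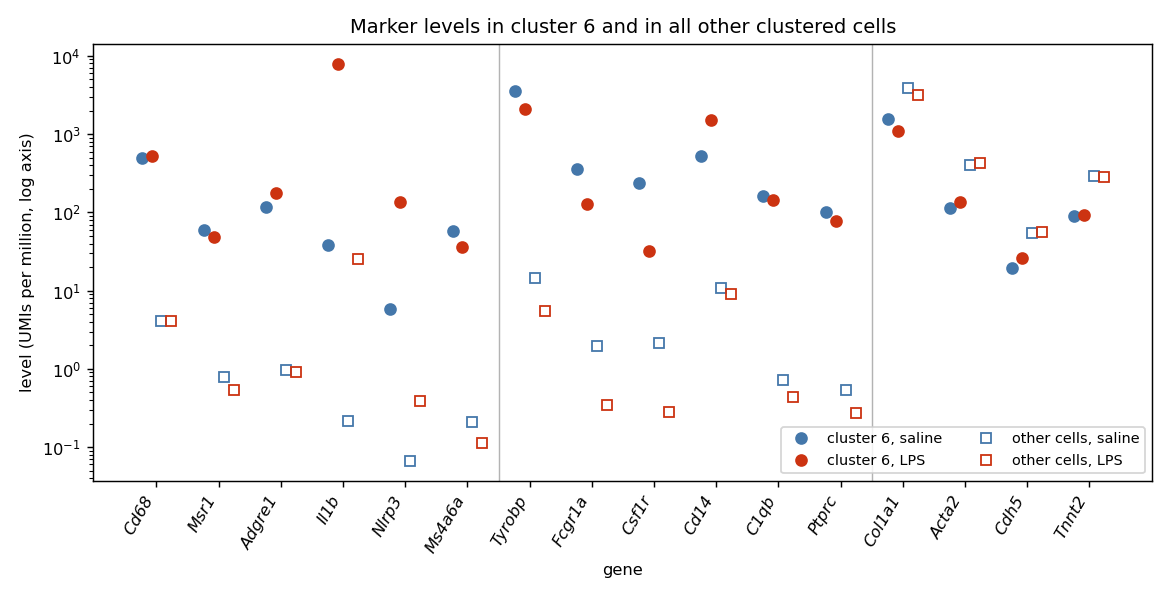
Levels (CPM, log axis) of 16 genes in cluster 6 (filled circles) and in all other clustered cells (open squares) of the saline (blue) and LPS (red) libraries; each point is the sum over the cells of 1 library. The 6 markers of the cluster and 6 further macrophage genes lie above the squares of the same library, Csf1r at 237 and 32.2 against 2.12 and 0.280 CPM, while Col1a1, Acta2, Cdh5 and Tnnt2, genes of fibroblasts, mural cells, endothelium and cardiomyocytes, lie below them.

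UMIs of markers of other cell types were present in the cluster, and their part in the results was not tested. All 8 fibroblast genes in the table passed the minimum, and their summed level was 3882 CPM in the saline and 2967 CPM in the LPS cluster, which was 39.9% and 34.2% of that in the other cells. Col1a1, a chain of type I collagen, was the most abundant of them at 1546 and 1103 CPM. Endothelial genes summed to 160 and 208 CPM, with Tie1 highest in saline at 34.0 CPM and Esam highest in LPS at 94.9 CPM, against 32.4 CPM in saline. Mural genes summed to 339 and 292 CPM, led by Acta2, and cardiomyocyte genes to 307 and 279 CPM, led by Tnnt2. Lymphocyte genes were close to absent, with 9 of 12 at 0 in both libraries, Cd3e among them, a summed level of 10.3 and 5.23 CPM (327% and 177% of that in the other cells), and no cell with 2 or more of them. Of the mast cell genes 6 of 9 were at 0, and the list summed to 7.71 and 5.63 CPM with Kit as the most abundant. The neutrophil list held 7 of 12 genes at 0, Mpo and Elane among them. It summed to 206 and 930 CPM, or 220% and 782% of the level in the other cells, of which Mmp9, a gelatinase that macrophages also make, gave 182 and 897 CPM. In the dendritic cell list 6 of 11 genes were at 0, among them Flt3 and Xcr1, and Clec10a, a lectin that macrophages also carry, gave 122 of 153 CPM in saline and 18.1 of 47.9 CPM in LPS. The dendritic cell list was thus also higher than in the other cells, where it summed to 3.02 and 2.08 CPM. Cells with 2 or more genes of the neutrophil list made up 12.1% of the saline and 11.3% of the LPS cluster. For the dendritic cell list these shares were 9.96% and 3.78%. Mesothelial genes summed to 12.5 and 6.03 CPM, led by Wt1, with 3 of 6 at 0. Hbb, a hemoglobin chain, had 69 UMIs in the saline and 8 in the LPS cluster, and Alas2 and Slc4a1, the other measured genes of the red cell list, were at 0.

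The contrast of LPS and saline was made over all 6206 genes of the cluster that passed the minimum. In the LPS library 291 genes (4.69%) were at least 2-fold higher and 760 (12.2%) at least 2-fold lower, and these shares are the background for every gene list named here. A gene could pass the minimum through 1 library alone, so the counts and medians of lists are partly set by the minimum. The median log2 ratio over all genes was -0.32, with quartiles of -0.68 and 0.05. Chemokines summed to 1.95% of the UMIs of the saline and 11.1% of those of the LPS cluster. When both libraries were scaled by the median of ratios, 443 genes were higher and 386 lower, and by the trimmed mean of M values (TMM) 445 and 385. The balance of higher and lower genes thus depended on the scaling, and list medians are best read against -0.32. Genes listed as lower with a log2 ratio above -1.32 came within 2-fold under both scalings, and genes listed as within 2-fold with a log2 ratio above 0.68 became 2-fold higher. The tail of high ratios was the longer one, with 53 genes at least 8-fold higher and 21 at least 8-fold lower.

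**Figure D2:**
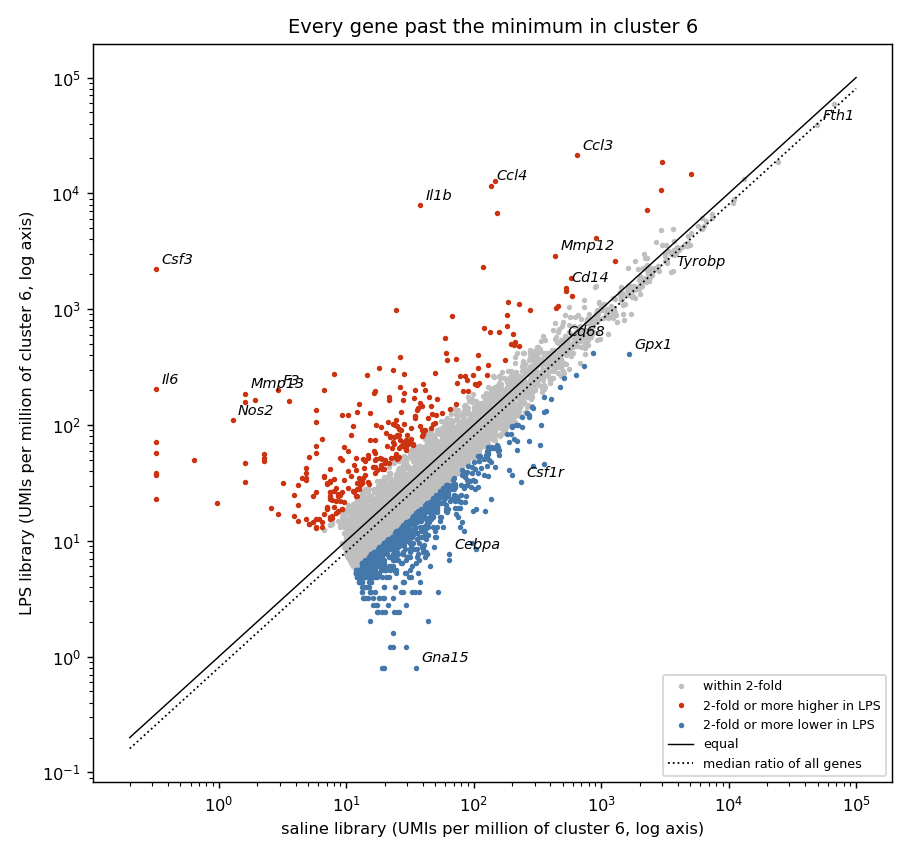
Level of each gene past the minimum in the saline cells (x) and the LPS cells (y) of cluster 6, in CPM on log axes; a point is 1 gene summed over the cells of each library, the solid line is equality and the dotted line the median ratio. Of 6206 genes 291 lie at least 2-fold above equality (red) and 760 at least 2-fold below it (blue); Csf3 and Il6 lie farthest above, at ratios of 6911 and 635, and Gna15 farthest below.

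The most abundant genes of the cluster differed little in saline and LPS, apart from the chemokines. AC134224.3, a gene the files name only by its clone, held 66570 and 59337 CPM. Fth1, the heavy chain of the iron store ferritin, followed with 49364 and 38628 CPM, which was 8.03 and 5.40 times the level of the other cells. Ftl1, the light chain, was at 24258 and 18795 CPM, and Tmsb4x, an actin-binding thymosin, at 13214 and 13409 CPM. Ferritin and thymosin genes have near-identical copies in the genome, and their counts are uncertain where reads could be split among copies. Among the 10 genes with most UMIs in the LPS cluster were the 6 chemokines Ccl3, Cxcl3, Ccl2, Cxcl1, Ccl4 and Ccl7, none of which was among the 10 of the saline cluster.

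Cytokines held the 3 largest log2 ratios, those of Csf3, Il6 and Il1b. Of 26 cytokine genes 13 passed the minimum, with a median log2 ratio of 4.26. In the LPS library 9 were at least 2-fold higher and none was at least 2-fold lower. Csf3, Il6, Il23a, Il1a and Tnf were detected in under 10% of the saline cells and passed through the LPS cells alone. The count and the median of this list are therefore partly set by the minimum. Csf3, the granulocyte colony-stimulating factor, had 1 UMI in the saline and 5516 UMIs in the LPS cluster, levels of 0.321 and 2219 CPM. The ratio of Csf3 was 6911 (1240 to 273032), the highest of all genes, with a denominator of a single UMI. Il6, the interleukin that induces the acute phase response, went from 1 to 507 UMIs, a ratio of 635 (114 to 25140). Il1b, the secreted interleukin-1 made as a precursor, had 119 UMIs in saline and 19685 in LPS, levels of 38.2 and 7919 CPM and a ratio of 207 (173 to 250). Here the saline count was large enough for a narrow interval. Il1a, the second interleukin-1, had 2 and 123 UMIs, a ratio of 77.1 (20.9 to 643). Il23a, the specific subunit of interleukin-23, had 1 and 92 UMIs, a ratio of 115 (20.2 to 4602). Tnf, tumor necrosis factor, had 5 UMIs in saline and 117 in LPS, levels of 1.61 and 47.1 CPM and a ratio of 29.3 (12.2 to 92.0). In saline each of these 6 cytokines was at or below the 38.2 CPM of Il1b. Osm, oncostatin M, stayed within 2-fold at a ratio of 1.71 (1.12 to 2.63), but came past 2-fold under both other scalings.

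Chemokines, which attract leukocytes, had the largest difference in summed CPM of all lists. Their summed level was 19457 CPM in the saline and 110733 CPM in the LPS cluster, a ratio of 5.69. The ratio of summed levels was larger for the cytokine list (13.2) and the inflammasome list (23.6). Of 26 chemokine genes 19 passed the minimum, 14 were at least 2-fold higher and 1 at least 2-fold lower, with a median log2 ratio of 2.65. Cxcl10 and Ccl20 were among those that passed through the LPS cells alone. Ccl3, which attracts monocytes, had 1997 UMIs in saline and 53299 in LPS, levels of 641 and 21442 CPM and a ratio of 33.4 (32.0 to 35.0). Ccl4, its close relative, went from 428 to 29056 UMIs, a ratio of 85.1 (77.3 to 93.8). Cxcl1, a neutrophil attractant, had 454 and 31790 UMIs, a ratio of 87.7 (80.0 to 96.5). Genes that were abundant in saline had smaller ratios. Cxcl3, from the same group of neutrophil attractants, was at 2988 and 18663 CPM, a ratio of 6.25 (6.11 to 6.39). Ccl2, the main attractant of CCR2-bearing monocytes, was at 5044 and 14739 CPM, a ratio of 2.92 (2.87 to 2.98), and Ccl7 at 2945 and 10780 CPM, a ratio of 3.66 (3.57 to 3.75). Cxcl10, an interferon-induced attractant of T cells, had 1 and 177 UMIs, a ratio of 222 (39.3 to 8808). Ccl20, the ligand of CCR6, had 1 and 142 UMIs, a ratio of 178 (31.4 to 7076). Pf4 stayed within 2-fold, at a ratio of 1.20 (1.17 to 1.24).

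Promoters of the most responsive genes are shown because members of these lists were high together and because NF-κB factors bind a short DNA element. Of the 15 genes with the highest log2 ratio 11 had an entry in the RefSeq promoter table of build GRCr8, which gives 250 bases before and 50 bases after a gene's start. A κB-like motif, GGG followed by any 5 bases and CC, was searched on both strands, overlapping matches included. It occurred in 5 of the 11 windows (45.5%) and in 15821 of all 33469 windows of the table (47.3%), so windows of the responsive genes held it about as often as any other. The first 4 by log2 ratio with a match are printed here as the 250 bases before the start, 5′ to 3′ on the gene's strand, with matches in capitals. A match is a description of the letters and not a site, and no match says nothing of the factor. Il6 lies at chr4:5894576-5894825 on the minus strand, Cxcl10 at chr14:15988816-15989065 on the plus strand, Ccl20 at chr9:91836909-91837158 on the plus strand and Gbp5 at chr2:233910749-233910998 on the plus strand.
Il6: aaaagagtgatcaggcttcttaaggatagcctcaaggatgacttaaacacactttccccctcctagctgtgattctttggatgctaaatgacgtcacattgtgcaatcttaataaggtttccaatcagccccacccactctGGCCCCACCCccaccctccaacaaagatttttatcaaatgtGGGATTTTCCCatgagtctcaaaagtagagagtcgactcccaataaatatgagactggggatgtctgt
Cxcl10: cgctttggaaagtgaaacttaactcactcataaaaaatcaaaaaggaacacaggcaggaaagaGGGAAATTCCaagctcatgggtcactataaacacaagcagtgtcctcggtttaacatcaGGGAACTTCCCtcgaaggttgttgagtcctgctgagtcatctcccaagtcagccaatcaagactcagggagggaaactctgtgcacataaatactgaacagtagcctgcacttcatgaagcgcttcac
Ccl20: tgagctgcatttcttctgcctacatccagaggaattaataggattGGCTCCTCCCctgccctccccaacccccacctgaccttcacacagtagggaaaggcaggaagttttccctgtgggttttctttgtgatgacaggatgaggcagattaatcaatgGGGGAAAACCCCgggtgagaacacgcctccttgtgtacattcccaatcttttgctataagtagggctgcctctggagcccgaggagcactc
Gbp5: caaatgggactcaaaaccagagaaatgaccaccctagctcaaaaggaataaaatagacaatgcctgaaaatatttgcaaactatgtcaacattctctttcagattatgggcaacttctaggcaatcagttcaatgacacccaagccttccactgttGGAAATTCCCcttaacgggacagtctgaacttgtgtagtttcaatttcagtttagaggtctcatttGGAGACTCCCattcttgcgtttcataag
In the Il6 window overlapping matches on both strands began 68 bases before the start, and Cxcl10 and Ccl20 held such overlapping matches that began 128 and 91 bases before the start.

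Genes that sense LPS and act just downstream were partly higher. Of 23 measured genes of the sensing list 10 passed the minimum, 5 were at least 2-fold higher and 1 at least 2-fold lower, with a median log2 ratio of 0.83. Cd14, the co-receptor that hands LPS to the receptor complex, was at 533 CPM in saline and 1536 CPM in LPS, a ratio of 2.88 (2.72 to 3.05), while in the other cells it was at 10.9 and 9.08 CPM. Ripk2, a kinase downstream of the NOD receptors, had a ratio of 8.13 (6.28 to 10.7), and Irak2, a kinase of the Toll-like receptor complex, one of 5.89 (4.36 to 8.08). Irak3, an inhibitory member of that kinase family, was at 17.0 and 50.7 CPM, a ratio of 2.98 (2.14 to 4.19). The kinase Irak4, which starts the cascade, was the member of the list that was lower, with 53 and 12 UMIs and a ratio of 0.284 (0.138 to 0.538).

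Among NF-κB subunits and their inhibitors, 9 genes were higher. Of 21 genes 12 passed the minimum, these 9 were at least 2-fold higher and none was 2-fold lower, with a median log2 ratio of 1.87. Nfkb2, a subunit precursor of the alternative pathway, was at 16.4 and 189 CPM, a ratio of 11.6 (8.66 to 15.8). Nfkbia, the inhibitor IκBα that retains the factor in the cytoplasm, had the most UMIs of the list and was at 119 and 692 CPM, a ratio of 5.79 (5.18 to 6.50). The nuclear IκB proteins followed, with ratios of 5.99 (4.74 to 7.65) for Nfkbiz and 7.02 (4.02 to 13.1) for Bcl3. Zc3h12a, an RNase that degrades cytokine mRNAs, had 39 and 375 UMIs, a ratio of 12.05 (8.65 to 17.2). It stood in a list of mRNA decay factors, phosphatases and SOCS genes of which 10 of 21 passed the minimum, 3 were higher and 2 lower. Zfp36, which destabilises Tnf mRNA, was higher at a ratio of 2.24 (1.73 to 2.91), while its relative Zfp36l2 was lower at 0.315 (0.234 to 0.417).

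Interferon-response genes were higher in part. Of 33 measured ones 18 passed, 10 were at least 2-fold higher and 1 at least 2-fold lower, with a median log2 ratio of 1.19. Gbp5, a guanylate-binding GTPase, had 5 and 396 UMIs, a ratio of 99.2 (42.2 to 307). Oasl, of the oligoadenylate synthetase family, was at 24.4 and 987 CPM, a ratio of 40.4 (32.2 to 51.5). Isg15, a ubiquitin-like modifier, was at 26.3 and 389 CPM, and Ifit3, which restrains viral replication, at 10.3 and 121 CPM. Ifitm3, the most abundant of the list, stayed within 2-fold at 1.37 (1.29 to 1.46).

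Enzymes of nitric oxide, prostaglandin and arginine metabolism gave 18 genes past the minimum of 22 in the table, 10 of them at least 2-fold higher and 1 lower, with a median log2 ratio of 1.51. Nos2, the inducible nitric oxide synthase, had 4 UMIs in saline and 274 in LPS, a ratio of 85.8 (33.1 to 317). Slc7a2, a carrier of its substrate arginine, had 7 and 130 UMIs. Ptgs2, the inducible cyclooxygenase COX-2, was at 8.03 and 274 CPM, a ratio of 34.1 (22.9 to 53.1). Acod1, which makes itaconate from a citric acid cycle intermediate, was at 17.98 and 308 CPM, a ratio of 17.1 (13.1 to 22.9). Slc7a11, the cystine importer, was at 28.3 and 275 CPM and Slc2a1, the glucose transporter GLUT1, at 39.8 and 224 CPM. Of the glycolysis and hypoxia list, to which Slc2a1 belongs, 19 genes passed, with 3 higher, none lower and a median log2 ratio of 0.02.

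Coagulation and plasminogen genes included 2 of the 15 highest log2 ratios. F3, tissue factor, which starts the clotting cascade, had 9 UMIs in saline and 495 in LPS, levels of 2.89 and 199 CPM and a ratio of 68.9 (36.0 to 152). Serpinb2, an inhibitor of plasminogen activators, had 1 and 96 UMIs, a ratio of 120 (21.1 to 4800), and its level in LPS was lower in the cluster (38.6 CPM) than in the other cells (45.3 CPM), where it was at 1.58 CPM in saline. Plek, a platelet and leukocyte substrate of protein kinase C, was at 67.4 and 870 CPM, a ratio of 12.9 (11.2 to 14.9). In all, 9 of 20 genes passed, with 5 higher, none lower and a median log2 ratio of 1.80.

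Matrix proteases and adhesion molecules were higher in 9 of the 16 genes that passed of 27 in the table, and 1 was lower. Mmp12, the macrophage metalloelastase, was at 434 and 2894 CPM, a ratio of 6.67 (6.29 to 7.08). Mmp13, a collagenase, had 5 and 464 UMIs, a ratio of 116 (49.5 to 360). Icam1, a ligand of leukocyte integrins, was at 14.4 and 270 CPM, a ratio of 18.7 (13.8 to 25.9). Survival genes gave 10 higher and 1 lower of 17 that passed, with a median log2 ratio of 1.43. Birc3, an inhibitor of apoptosis, had 7 and 139 UMIs, and Bcl2a1, of the Bcl-2 family, was at 581 and 1865 CPM, a ratio of 3.21 (3.04 to 3.39). Sod2, the mitochondrial superoxide dismutase, was at 2303 and 7118 CPM, a ratio of 3.09 (3.01 to 3.18). Gdf15, a stress-induced cytokine of the TGF-β family, was at 9.31 and 122 CPM.

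The 15 lowest log2 ratios came from genes with few UMIs left in the LPS cluster, between 2 and 24. All 15 reached the share of cells required by the minimum through the saline cells alone. Which genes stood lowest is therefore partly set by the minimum. Gna15, a G protein subunit of blood cells that couples receptors to phospholipase C, had 109 UMIs in saline and 2 in LPS, a ratio of 0.0230 (0.00275 to 0.0851). Erbb3, a receptor of the epidermal growth factor family, had 92 and 3 UMIs, a ratio of 0.0409 (0.00827 to 0.123). Gcnt1, which branches O-linked glycans, had 136 and 5 UMIs, a ratio of 0.0461 (0.0147 to 0.110). These 3 counts in the LPS cluster, of 2 to 5 UMIs, were close to the limit of 3 UMIs. Apobec1, a cytidine deaminase that edits mRNA, had 72 and 3 UMIs, and Jaml, a junctional adhesion protein of leukocytes, had 59 and 2. Blnk, an adaptor of immune receptor signalling, had 69 and 3 UMIs, and Evi2a 162 and 9. Vsir, the immune checkpoint VISTA, had enough UMIs for a narrower interval, with 327 and 21 UMIs and a ratio of 0.0805 (0.0491 to 0.125). Lyl1, a blood cell transcription factor, had 304 and 24 UMIs, a ratio of 0.0989 (0.0624 to 0.150). Sapcd2, Otulinl, Abi3 and Tnfrsf21, a death receptor, completed the lowest 15 with log2 ratios between -4.32 and -3.27, together with Islr and Vegfd. Islr and Vegfd, a vascular growth factor, were lower in cluster 6 than in the other cells of both libraries, at 25.7 CPM for Vegfd in saline against 42.4 CPM elsewhere.

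Of the 17 general macrophage genes past the minimum, 2 were higher, 2 lower, a share near the background of 12.2%, and 13 within 2-fold. Csf1r, the receptor for the growth factor that keeps macrophages alive, had 737 UMIs in saline and 80 in LPS, levels of 237 and 32.2 CPM and a ratio of 0.136 (0.107 to 0.171). Of 16 cytokine and chemokine receptors past the minimum 5 were lower, Csf1r and Il6r among them, and 2 were higher, namely Ccrl2, an atypical chemokine receptor, at 3.53 and 160 CPM, and Tnfrsf1b, the second TNF receptor, at 28.3 and 187 CPM. Cebpa, a transcription factor of myeloid differentiation, had 199 and 19 UMIs, a ratio of 0.120 (0.0705 to 0.192), whereas its relative Cebpb was at 528 and 1429 CPM, a ratio of 2.70 (2.55 to 2.87). Mef2c had 61 and 8 UMIs, and Hif1a, the oxygen-regulated factor, was higher at 108 and 402 CPM. Among the 18 immediate early genes past the minimum 7 were higher, with Maff at a ratio of 10.5 (7.50 to 15.1) and Atf3 at 4.83 (3.50 to 6.78), and 3 lower, with Egr2 at 0.236 (0.129 to 0.405). Macrophage transcription factors as a list had a median of -0.12, with 5 higher and 3 lower of 18, the latter a share near the background of 12.2%. Fcgr1a, the high-affinity IgG receptor, was at 353 and 129 CPM, a ratio of 0.365 (0.322 to 0.414), while the low-affinity Fcgr3a was at 29.2 and 62.0 CPM.

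Pattern and scavenger receptors held genes of both directions. Clec4e, the receptor Mincle, had 5 and 80 UMIs, a ratio of 20.05 (8.24 to 63.4), and its neighbour in the family Clec4d was at 73.5 and 230 CPM. Clec4a1 had 86 and 9 UMIs, a ratio of 0.131 (0.0580 to 0.261). Of the 21 phagocytic and scavenger receptors past the minimum 5 were higher and 3 lower, the latter a share near the background of 12.2%. The median of -0.32 was that of all genes. Clec10a, from the dendritic cell list, had 381 and 45 UMIs, a ratio of 0.148 (0.106 to 0.202). In the inflammasome list of 7 genes past the minimum, Il1b and Nlrp3, at a ratio of 23.3 (14.5 to 39.8), were higher. Pycard, the adaptor that joins sensor and caspase, was lower at 103 and 18.9 CPM, a ratio of 0.183 (0.132 to 0.249), and so was Gsdmd, the pore protein, at 32.4 and 14.5 CPM, which came within 2-fold under the other scalings.

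Antioxidant, iron and lipid genes held large differences among mostly smaller ones. Gpx1, a glutathione peroxidase, was at 1640 CPM in saline and 408 CPM in LPS, a ratio of 0.249 (0.232 to 0.266), and was the most abundant of the lower genes named here. Slc40a1, the iron exporter ferroportin, had 114 and 19 UMIs. The iron and antioxidant list had 4 higher and 4 lower of 25 past the minimum, the latter a share near the background of 12.2%. Abcg1, an exporter of cholesterol, was at 50.4 and 10.9 CPM, and Ch25h, which makes 25-hydroxycholesterol, at 60.7 and 422 CPM, a ratio of 6.95 (5.95 to 8.16). Of 19 lipid genes past the minimum 16 stayed within 2-fold. Lysosomal genes stayed within 2-fold in 26 of 28 cases, with Ctsb, the cathepsin with most UMIs, at 2298 and 2384 CPM and Lipa, the acid lipase, at 71.3 and 22.1 CPM. Complement genes had 2 lower of 10, and C1qb, a chain of C1q, was at 164 and 144 CPM. B2m, the light chain of class I molecules, was at 1396 and 1412 CPM, Cd40, a co-stimulatory receptor, at 11.2 and 98.6 CPM, and Cd74, the invariant chain of class II molecules, at 87.3 and 38.2 CPM, a difference that came within 2-fold under the other scalings.

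Genes of resident macrophages, respiration and division had list medians at or below that of all genes, the first at -0.79. Of 6 resident macrophage genes past the minimum 2 were lower, none was higher and 4 stayed within 2-fold, and the summed level of the list was 3652 and 3916 CPM, mostly from Pf4. Folr2, a folate receptor, was at 199 and 115 CPM and Maf, a transcription factor, at 21.8 and 12.5 CPM, both within 2-fold. Igf1, the insulin-like growth factor, was at 190 and 70.8 CPM, a ratio of 0.373 (0.313 to 0.441), and Gas6, a ligand that bridges receptors to dying cells, at 130 and 36.2 CPM. Both genes were as abundant or more so in the other cells of the saline library, at 190 and 179 CPM, and were lower there in LPS too, at 65.1 and 85.1 CPM. All 21 genes of the respiratory chain and all 12 of the mitochondrial genome that passed the minimum stayed within 2-fold, with medians of -0.32 and -0.43. Cell cycle genes past the minimum numbered 12, of which 2 were lower, a share near the background of 12.2%, and none higher, with a median of -0.62. Ccnd1, cyclin D1, had 98 and 18 UMIs, a ratio of 0.230 (0.131 to 0.383), and Top2a, of dividing cells, 65 and 23 UMIs, a ratio of 0.443 (0.263 to 0.723) that came within 2-fold under the other scalings. Of 10 heat shock genes past the minimum 1 was lower, Bag3, also a share near that background, and Hspa8 was at 499 and 773 CPM. Among purinergic and related receptors 7 passed, with a median log2 ratio of -0.71, Adora2a, an adenosine receptor, higher at 15.4 and 127 CPM and P2ry6, a receptor for UDP, lower at 44.3 and 17.7 CPM, which came within 2-fold under the other scalings. Dbh and Ddc encode enzymes of catecholamine synthesis by which the study marks ICA cells in these data. They were at or near the limit of 3 UMIs, with 0 and 2 UMIs of Dbh and 5 and 1 UMIs of Ddc. Th, the enzyme that the study stains for, is not given here. The plot of list members puts these groups side by side.

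**Figure D3:**
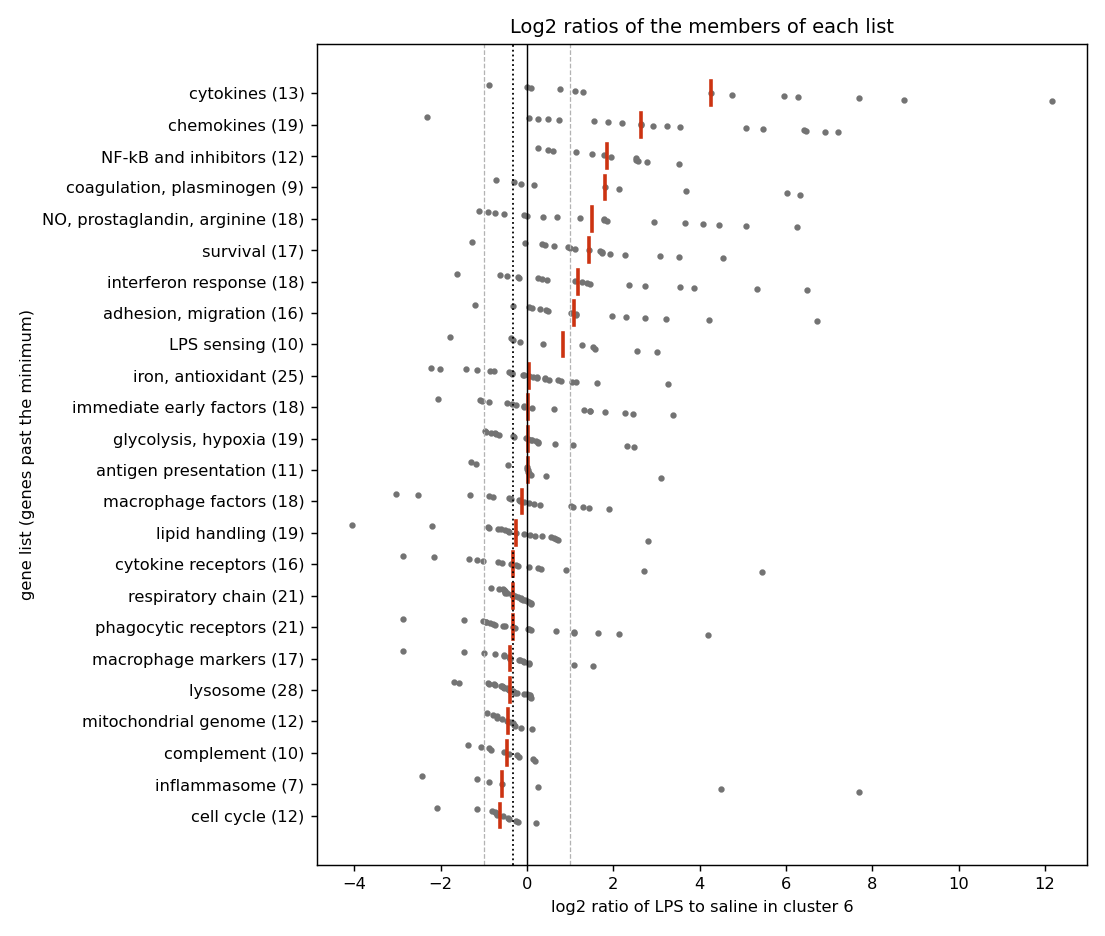
Log2 ratio of LPS to saline in cluster 6 (x) for the members of 24 gene lists (y, with the number of members past the minimum); each dot is 1 gene, the red bar the median of the list, the dotted line the median of all genes (-0.32) and the dashed lines 2-fold. Cytokines (median 4.26), chemokines (2.65) and NF-κB genes (1.87) lie to the right, and lysosomal (-0.40) and mitochondrial (-0.43) genes lie near the dotted line. Members such as Csf3, Il6, Cxcl10 and Ccl20 passed the minimum through the LPS cells alone, so the medians are partly set by it.

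The differences were seen across most cells for some genes and in few cells for others. Chemokines made up a median of 2.01% of a cell's UMIs in the saline cluster (range 0.158 to 11.9%) and 12.5% in the LPS cluster (0.296 to 29.5%). Of the 291 LPS cells 157 lay above the highest saline cell and only 3 below the saline median, so the groups overlapped in part. With each cell thinned to 3000 UMIs, which left out 1 LPS cell, Il1b had a UMI in 7.83% of saline and 96.6% of LPS cells (17.4% and 97.9% without thinning). In the fibroblasts of cluster 0 the thinned Il1b shares were 0.0758% and 7.05%, and the source of these UMIs was not tested. Csf3 had a UMI in 0.356% and 75.2% of cells (0.356% and 81.8% without thinning), against 0.0909% and 8.61% in cluster 0. Tnf was detected in fewer cells, 0.712% and 13.4% (1.42% and 22.7% without thinning), against 0% and 0.285% in cluster 0. Nos2 was found in 0.712% of saline and 30.7% of LPS cells (1.42% and 51.2% without thinning), against 0.0455% and 2.24% in cluster 0.

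The spread over cells was read as the ratio of variance to mean at 3000 UMIs per cell, which is near 1 for counting noise alone and had a median over genes of 1.05 in saline and 1.08 in LPS. Csf1r stood near it, at 1.08 and 1.10, and had a UMI in 59.1% of saline and 11.03% of LPS cells (86.8% and 21.0% without thinning). Cd68 was at 1.70 and 1.82, with a median of 1 UMI per cell in both libraries. In the LPS cells Ccl3 reached 30.6, with a median of 72.5 UMIs per cell and quartiles of 33.3 and 113, and Cxcl1 32.3, with a median of 30 UMIs. Il1b was at 24.1, with a median of 20 UMIs and 10 cells at 0. Mmp12 varied more in relation to its level, with 100 LPS cells at 0 and the 29 cells with most of it holding 46.6% of its UMIs. Mmp13 had 251 LPS cells at 0 and 95.2% of its UMIs in 29 cells. Il6 had 226 LPS cells at 0 and 76.7% of its UMIs in 29 cells. In saline the highest ratios of variance to mean were those of hemoglobin genes, LOC100134871 and Hba-a2 at 207 and 205. These were noticed only after their values were seen. Their means were 0.758 and 0.744 UMIs per cell, so nearly all of their UMIs lay in very few cells. Fth1 varied in both libraries, at 68.0 and 75.3.

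**Figure D4:**
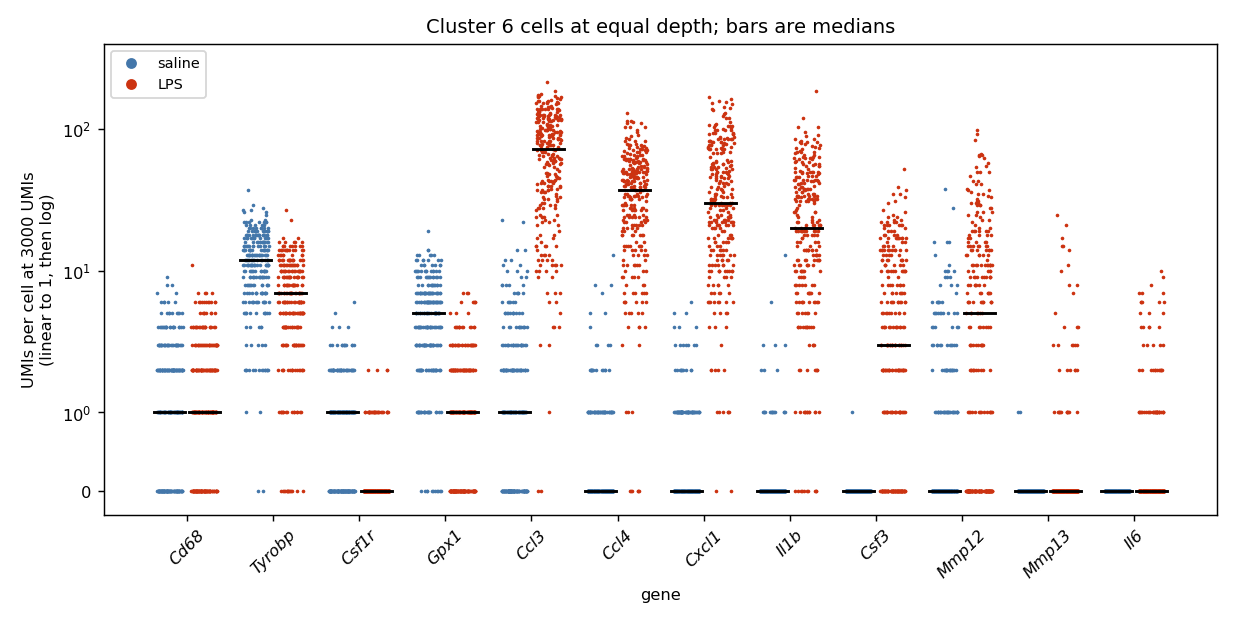
UMIs per cell (y, linear to 1 and log beyond) of 12 genes (x) in 281 saline (blue) and 290 LPS (red) cells of cluster 6, each thinned to 3000 UMIs; a dot is 1 cell with a sideways jitter, and black bars are medians. The medians of Ccl3 (72.5), Ccl4 (37), Cxcl1 (30) and Il1b (20) in LPS lie above the highest saline cell of the same gene, Csf1r and Gpx1 lie lower in LPS, and Mmp13 and Il6 are at 0 in most cells.

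The same contrast in the other clustered cells was set beside that of the cluster; with 1 library per condition the difference between them could not be tested. Some genes were abundant outside cluster 6 too. Ccl2 in the other cells was at 523 CPM in saline and 7413 CPM in LPS, a log2 ratio of 3.82 against 1.55 in the cluster. Cxcl1 was at 134 and 2114 CPM there, a log2 ratio of 3.98 against 6.45. The level of Cxcl10 in the LPS library was lower in the cluster (71.2 CPM) than in the other cells (120 CPM), and that of Ccl20 was about the same (57.1 and 59.9 CPM). For Il1b the other cells stood at 0.214 and 25.03 CPM, which was a log2 ratio of 6.85 against 7.69. Csf3 in the other cells was at 0.341 and 43.2 CPM and was highest outside the macrophages in cluster 5, at 274 CPM in LPS. Genes with a larger log2 ratio in the cluster than elsewhere included Rtp3, with 164 CPM in LPS against 1.16 CPM in the other cells. The log2 ratios of Rtp3 were 6.30 and 0.96, those of Il23a 6.27 and 0.36, and those of Slc2a1 2.49 and 0.10. F3 was 68.9-fold higher in the cluster and at 13.6 and 10.97 CPM in the other cells. Csf1r had nearly the same log2 ratio in both, -2.87 in the cluster and -2.90 in the other cells, where its level was 2.12 and 0.280 CPM. Free RNA in the droplets puts UMIs of an abundant gene into other cells, and its part in these values was not tested.

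**Figure D5:**
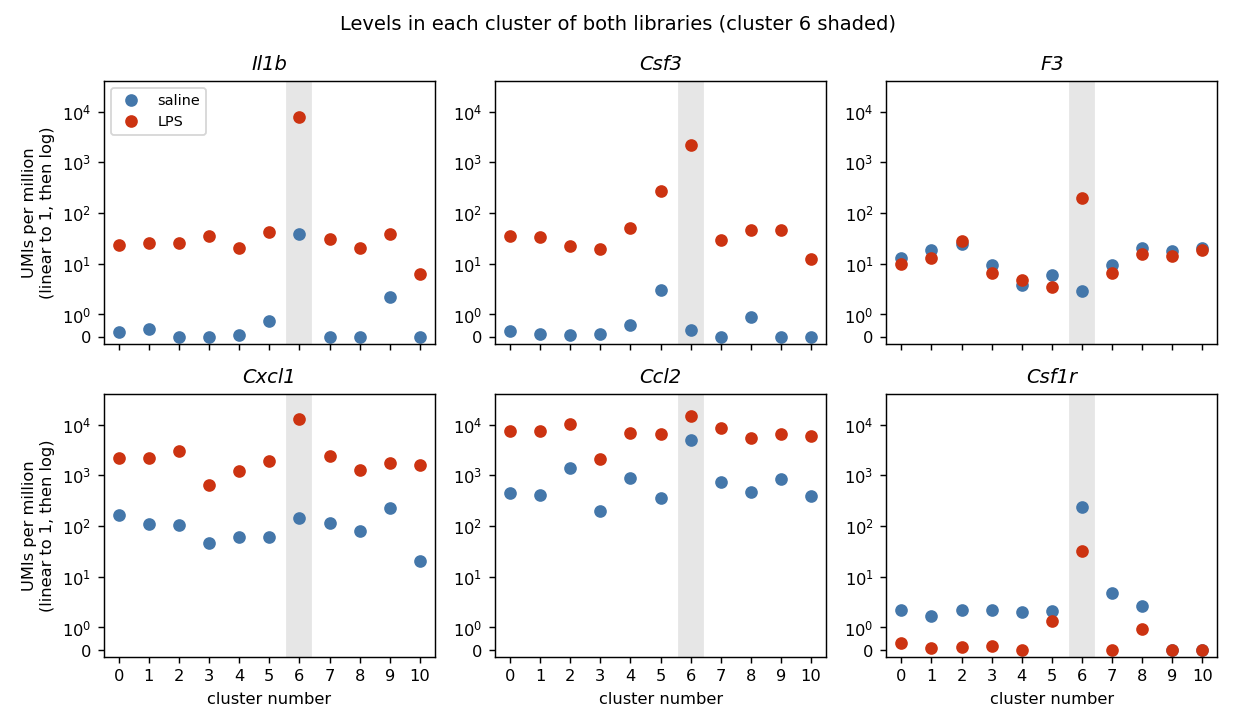
Level (y, CPM, linear to 1 and log beyond) of 6 genes in each of the 11 clusters (x) of the saline (blue) and LPS (red) libraries; a point is 1 cluster of 1 library and cluster 6 is shaded. Il1b, Csf3, F3, Cxcl1 and Ccl2 are highest in the LPS cells of cluster 6, and Csf1r in its saline cells. In the LPS cells of the other clusters F3 lies between 3.52 and 28.3. The 11 clusters are those of the deposited cell labels, and the paper states a different number.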

How the data were processed

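Single-cell RNA was measured in 1 library of LPS-treated and 1 of saline-treated cardiac cells. The authors deposited raw UMI counts per gene and cell barcode without normalization, 1 table of cells with cluster numbers per library, and no replicate. The study's methods give canonical correlation analysis of both libraries in Seurat, followed by clustering with FindClusters (resolution 0.5). The submitters' processing notes name Cell Ranger 2.2.0 and Seurat 2.3.4; the genome build behind the counts is not given in the sources used here, so promoter coordinates belong to the RefSeq table only. The number of value columns not mapped to a sample was 0.

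Counts of cluster 6 were summed per library and scaled to CPM with pandas 2.3.3, scipy 1.17.1 and numpy 2.4.6 under Python 3.11.15. No test was made, since cells of 1 library are not replicates. Intervals are exact Poisson, exact conditional (ratios) and Clopper-Pearson (shares) at 95%. No cell was filtered out, cells without a cluster (2 saline, 8 LPS) were left out, and no doublet caller was run; instead the 10% of cells with most UMIs, or with most UMIs of other cell types' markers, were removed in alternatives. Thinning drew 3000 UMIs per cell without replacement (seed 1). Genes entered the contrast with at least 50 UMIs over both libraries and a UMI in 10% of the cells of a library.

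Named genes were the markers of the cluster and the genes the study names for macrophages, the 15 highest and 15 lowest log2 ratios, up to 4 members of each list with the largest absolute log2 ratio and the most abundant member, the 10 leading genes against other cells (detected in 25% of the cluster or more), and the 10 most abundant genes per library. A list of 12 monocyte genes gave 4 past the minimum, led by S100a4 at 2804 and 2328 CPM, all within 2-fold in the main scaling, and growth factors 8, of which 2 were higher and 1 lower. The members and lists were chosen with earlier results of these data known. The summing and the ratios were tested on simulated data. Alternatives were other scalings, minimums, folds, depths and filters on cells.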

Additional observations from a re-analysis of the deposited data

Results flagged for a closer look

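For 11 named genes the ratio of LPS to saline lay on opposite sides of 1 in cluster 6 and in all other clustered cells, with a ratio past 2-fold in the cluster. With 1 library per condition the difference between the groups of cells was not tested. The other cells were pooled over their clusters and taken in the main scaling only. Some of their ratios were close to 1, such as 0.921 for Gadd45a and 1.09 for P2ry6, so their side of 1 may depend on the scaling. Higher in the LPS cells of the cluster and lower in the other LPS cells were F3, with log2 ratios of 6.03 and -0.31, Cd14, with 1.53 and -0.26, Olr1, the lectin-like receptor for oxidised lipoprotein, with 2.13 and -0.31, Ndrg1, a gene of the hypoxia response, with 1.08 and -0.36, and Gadd45a, of the DNA damage response, with 2.27 and -0.12.

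Lower in the cluster and higher in the other cells were Cebpa, with log2 ratios of -3.03 and 0.22, Abcg1, with -2.19 and 0.55, Ccnd1, with -2.09 and 0.47, Egr2, with -2.05 and 0.32, P2ry6, a receptor for UDP, with -1.31 and 0.12, and Cd83, a surface protein of activated antigen-presenting cells, with -1.29 and 1.95. Cd83 moved farthest in the other cells, where its level was 1.16 CPM in saline and 4.49 CPM in LPS, against 51.4 and 20.9 CPM in the cluster. P2ry6 and Cd83 came within 2-fold in the cluster under the other scalings. The UMIs of macrophage origin among the other cells were not separated from their own.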

How the results depend on the processing

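No paired analysis was possible because there is a single library for saline and a single one for LPS. In the main setting 291 genes were at least 2-fold higher and 760 lower. The counts became 443 and 386 with scaling by the median of ratios and 445 and 385 with TMM. A minimum of 100 UMIs left 424 lower genes, a minimum of 200 UMIs 164 higher and 183 lower, no minimum beyond 1 UMI gave 1249 and 3550, and thinning to 3000 UMIs per cell gave 348 lower. At 1.5-fold the counts were 524 and 1917, at 3-fold 162 and 208, and at 4-fold 111 and 103. The mean of the cells' own CPM, 5 UMIs added to each sum, the filters on cells, the removal of the 10% of cells with most UMIs or most markers of other types, and the removal of cells with a barcode in both libraries (chosen after seeing the data) kept both counts within 1.5 times. Of 3255 values recomputed over all results and alternatives 2850 stayed the same and 405 moved. A log2 ratio or a share of cells stayed the same within the interval of its main value, and a count within 1.5 times its main value. A reversal was defined only for log2 ratios of genes past 2-fold, and 0 of these reversed. Of 123 named genes past 2-fold, 114 remained so the same way under the median of ratios and under TMM, and 115 after thinning. The cause of the moves other than the scaling shift of -0.32 was not tested. Depth limits genes with few UMIs: a count of 0 allows 0.963 CPM in the saline and 1.21 CPM in the LPS cluster.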
